A study of Mus musculus with 6 samples.

Results

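The genes described here are 10 nuclear receptor genes of macrophages, chosen by name from the receptor families NR4A (Nr4a1, Nr4a2, Nr4a3), RXR (Rxra, Rxrb), RAR (Rara), PPAR (Pparg, Ppard), the vitamin D receptor (Vdr) and the glucocorticoid receptor (Nr3c1). All 10 were among the 25044 genes of the count table, and 9 of them had enough reads to be tested. Nuclear receptors are transcription factors that bind DNA through paired zinc fingers and, in most cases, are switched by a small lipid-soluble ligand. RAR, PPAR and VDR act as heterodimers with an RXR, the glucocorticoid receptor is held by heat shock protein chaperones until hormone binds, and the NR4A receptors have no classical ligand and are controlled mainly by how much of them is made. In macrophages the NR4A genes are immediate early genes that inflammatory signals switch on briefly, while PPARs and the related liver X receptors (LXR) control lipid handling and the glucocorticoid receptor restrains inflammatory genes.

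RNA was sequenced from 2 groups of 3 libraries each. The cells were peritoneal macrophages of wild type C57BL/6 mice aged 8 weeks, collected 3 days after thioglycollate, an irritant that recruits monocyte-derived macrophages, kept by adherence for 1 h and cultured for 24 h. In the trametinib group they received the MEK inhibitor trametinib at 100 nM, which blocks the kinases that activate ERK, for 2 h before 100 ng/ml LPS, a bacterial ligand of the receptor TLR4, was added for 12 h. The vehicle group received DMSO in place of trametinib and the same LPS. Every culture received LPS, so the comparison shows what MEK inhibition changed in LPS-treated cells, and the study used 3 mice, which the labels do not assign to libraries.

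The libraries held 17453778 to 19648467 counts. Levels are given as CPM, counts relative to the library total, scaled by the TMM factor. Changes are log2 ratios of trametinib over vehicle (log2FC), and adjusted p values come from edgeR's quasi-likelihood test with Benjamini-Hochberg adjustment over all 11286 genes tested, with 0.05 as the threshold for a gene to count as changed. Where a gene is said to have risen or fallen by a value, that value is its log2FC. The summed CPM of 16 genes of ERK output and feedback was 81.3, 82.4 and 77.7 in the trametinib libraries, against 542, 548 and 252 in vehicle replicates 1, 2 and 3, and 11 of its 14 tested genes fell, against 18.4% of all tested genes lower, among them the immediate early gene Egr1 (log2FC −6.23, adjusted p 0.000645) and the ERK inhibitor Spred1 (log2FC −2.66, adjusted p 0.000768). Vehicle replicate 3 stood apart: on the first principal component it lay at 16.2, between the trametinib libraries at −26.4 to −35.5 and the other vehicle libraries at 38.1 and 39.3. Macrophage markers summed to 20894 to 23973 CPM with trametinib and 21073 to 23469 CPM with vehicle, most of it Lyz2 and Ctss. Single markers changed within that sum: Mertk, Cd14 and Ctss rose and Adgre1 and Itgam fell, 5 of 12 tested against 34.3% of all tested genes changed. Adgre1, which encodes F4/80, averaged 915 ± 61.8 CPM with trametinib and 1720 ± 212 CPM with vehicle (SD, n = 3 each; log2FC −0.91, adjusted p 0.000502), and Itgam, which encodes CD11b, averaged 30.8 ± 6.47 CPM with trametinib and 69.1 ± 25.1 CPM with vehicle (adjusted p 0.0437). Without trametinib replicate 1 or 2 or vehicle replicate 1 or 2, 1 of the 12 rose and 1 fell. In those settings 21.2% to 23.1% of all tested genes changed. Without trametinib replicate 3, 3 rose and 1 fell, against 31.8%. The 10 markers of resident large peritoneal macrophages summed to 814 to 1101 CPM with trametinib and 622 to 712 CPM with vehicle, nearly all of it F10, and the defining factor Gata6 had at most 1 count in any library. The 8 dendritic cell markers summed to 14.0 to 25.8 CPM with trametinib and 3.14 to 8.97 CPM with vehicle. Ccr7 made up 10.8, 10.3 and 22.5 CPM of the sum in trametinib replicates 1, 2 and 3, and 0.673, 2.12 and 7.08 CPM in vehicle replicates 1, 2 and 3, while 6 of the 8 stayed under 1 CPM in every library, Flt3 at or below 0.177 CPM. The part of these markers in the results below was not tested. In bulk RNA, fewer cells of a type and less RNA per cell cannot be told apart.

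Among the receptors themselves, trametinib lowered Rara, the gene of retinoic acid receptor alpha, and raised Rxrb, the gene of retinoid X receptor beta. Rara averaged 6.26 ± 0.924 CPM with trametinib and 11.7 ± 2.08 CPM with vehicle, and Rxrb averaged 41.3 ± 2.30 CPM with trametinib and 32.1 ± 4.65 CPM with vehicle (SD, n = 3 each). The other 7 tested receptor genes did not pass, and Vdr was too low to test. Of the 9 tested, 1 rose and 1 fell, against 34.3% of all tested genes changed, with 15.8% higher and 18.4% lower. Ranges of the groups stood apart for 3 of the 9 (Rara, Rxrb and Nr3c1), against 49.3% of all tested genes. These counts rest on 9 genes, among them the NR4A genes and Pparg with at most 77 counts per library. Whether they differ from the background shares was not tested. With the replicate number as a block 1 rose and 1 fell, against 42.9% of all tested genes changed. Without trametinib replicate 1, 2 or 3 only Rara was called, against 21.2%, 23.1% and 31.8% of all tested genes (9.33%, 10.5% and 14.6% higher). Without vehicle replicate 1 or 2 it was again Rara alone, against 22.2% and 23% (9.89% and 10.2% higher). Without vehicle replicate 3 Nr3c1 and Rxrb rose and Rara fell, against 40.8% (19.3% higher).

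**Figure D1:**
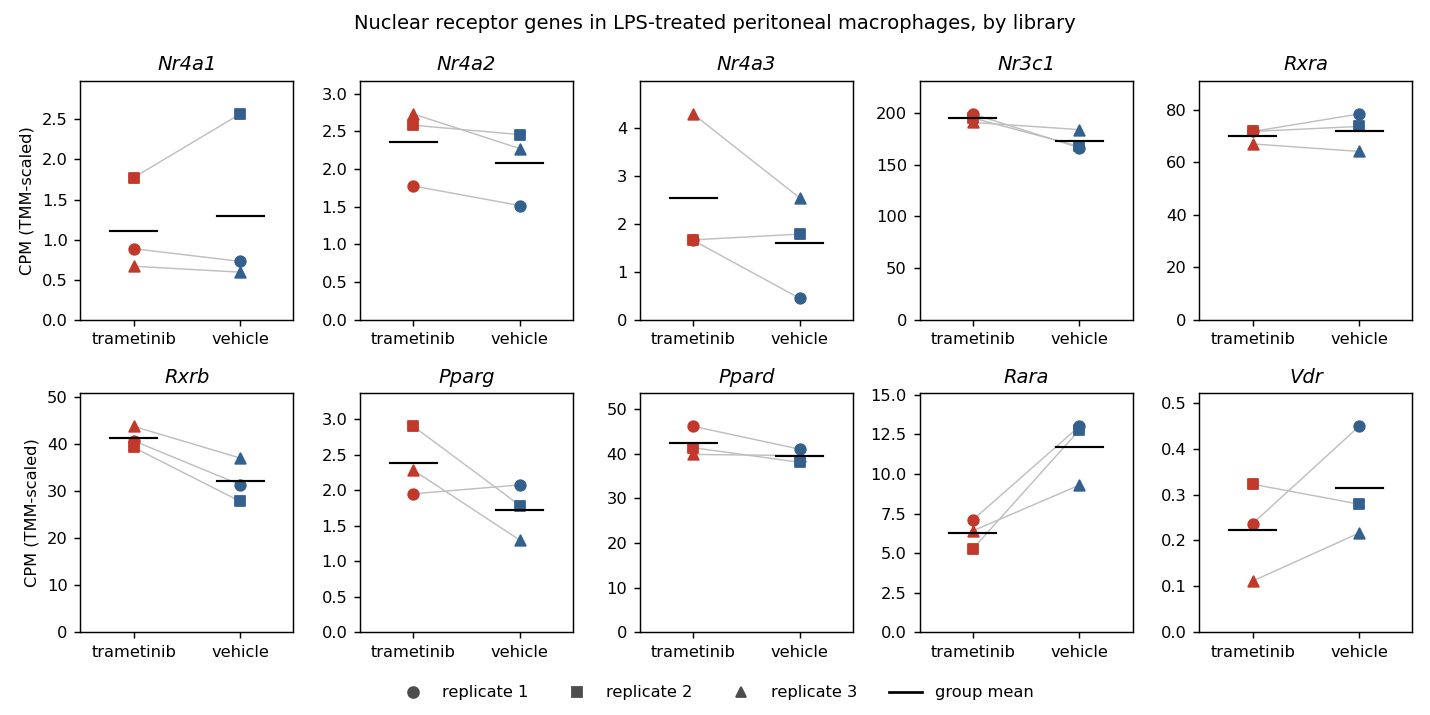
CPM of each of the 10 receptor genes (y axis, from 0, a scale of its own in each panel) in the 3 trametinib and 3 vehicle libraries, with grey lines joining libraries of the same replicate number and black bars at the group means. Rara lies between 5.27 and 7.10 CPM in all trametinib libraries and between 9.29 and 13.0 CPM in all vehicle libraries, and the 3 NR4A genes overlap between the groups.

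Levels between genes were compared per kb of annotated exon. Nr3c1 was highest, with 25.4 ± 0.534 CPM per kb under trametinib and 22.5 ± 1.27 CPM per kb under vehicle (SD, n = 3 each). Rxra followed with 12.9 ± 0.501 and Rxrb with 10.4 ± 0.578 CPM per kb under trametinib, against 13.2 ± 1.33 for Rxra and 8.08 ± 1.17 for Rxrb under vehicle. Next came Ppard at 5.65 ± 0.439 CPM per kb with trametinib and 5.27 ± 0.196 with vehicle, and Rara at 1.43 ± 0.212 with trametinib and 2.68 ± 0.477 with vehicle. Down to Rara, the ranges of neighbours in this order did not overlap in either group. Pparg, Nr4a2, Nr4a1 and Nr4a3 all averaged under 1 CPM per kb in both groups. Pparg led them at 0.806 ± 0.163 CPM per kb with trametinib and 0.582 ± 0.133 with vehicle, and overlapped its neighbour Nr4a2 in both groups. Vdr was lowest, at 0.0396 ± 0.0188 CPM per kb with trametinib and 0.0557 ± 0.0213 with vehicle.

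**Figure D2:**
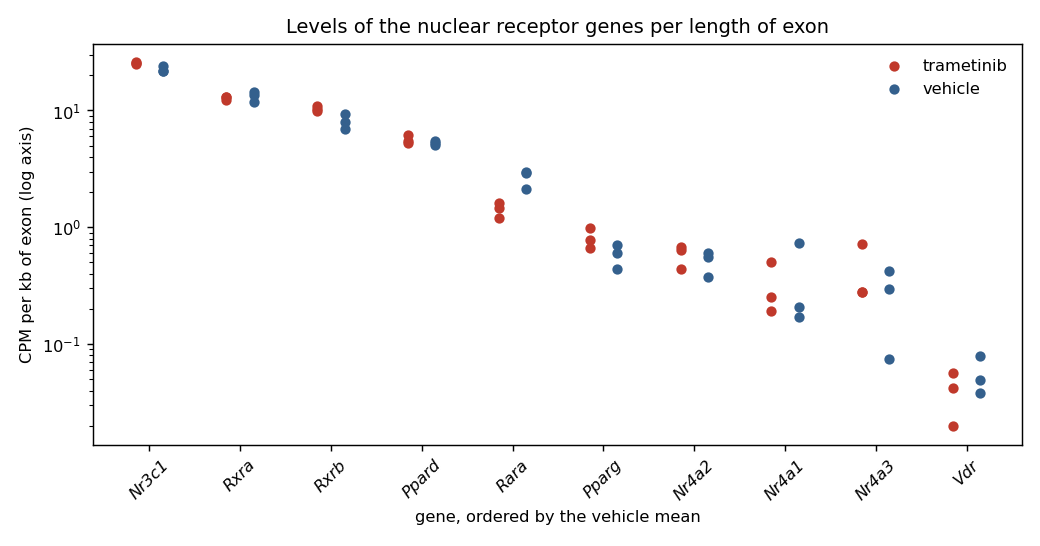
CPM per kb of exon (log axis) of the 10 receptor genes in each library, trametinib points left of vehicle points, with genes ordered by the vehicle mean. The order runs from Nr3c1, with a vehicle mean of 22.5 CPM per kb, to Vdr, with 0.0557, and the trametinib points of Rara lie below all its vehicle points.

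The NR4A genes encode Nur77 (Nr4a1), Nurr1 (Nr4a2) and NOR1 (Nr4a3). Their promoters are known for cAMP response elements, which CREB binds, so the sequence before each start is shown with the letters TGACG, the core of that element, and GGGCGG, the GC box bound by Sp1, in capitals on either strand. The stretches come from the RefSeq promoter windows (GRCm38.p6, the mm10 assembly) and end at the RefSeq start site for Nr4a1 (chr15:101266596-101266845, plus strand) and Nr4a2 (chr2:57124004-57124253, minus strand). For Nr4a3 the stretch (chr4:48045055-48045152, plus strand) stops where the first GENCODE exon begins, 152 bases before the RefSeq start.
Nr4a1: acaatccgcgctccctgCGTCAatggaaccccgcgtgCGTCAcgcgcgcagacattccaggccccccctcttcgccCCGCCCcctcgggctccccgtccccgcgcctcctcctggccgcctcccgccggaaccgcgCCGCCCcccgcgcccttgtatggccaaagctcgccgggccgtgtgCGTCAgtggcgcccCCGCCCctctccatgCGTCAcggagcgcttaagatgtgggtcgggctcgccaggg
Nr4a2: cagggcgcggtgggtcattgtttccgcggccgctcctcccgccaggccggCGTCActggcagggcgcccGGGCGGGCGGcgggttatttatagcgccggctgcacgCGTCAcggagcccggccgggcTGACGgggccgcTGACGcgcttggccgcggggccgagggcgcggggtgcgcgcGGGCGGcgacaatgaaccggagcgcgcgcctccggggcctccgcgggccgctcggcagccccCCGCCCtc
Nr4a3: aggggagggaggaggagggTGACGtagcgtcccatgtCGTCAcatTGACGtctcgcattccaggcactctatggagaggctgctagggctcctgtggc
The core TGACG or its complement occurred 4 times in the 250 bases before the RefSeq start of each NR4A gene, with 3 of the Nr4a3 matches in the stretch printed. It occurred at least once in 17.8% and at least 4 times in 0.137% of 32851 windows of the same length. The full palindrome TGACGTCA was in none of the 3 windows and in 1.55% of all. GC boxes numbered 3 before Nr4a1, 4 before Nr4a2, where 2 of them overlap, and 1 before Nr4a3, and 32.7% of all windows had at least 1. Such matches describe letters and not binding.

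At 12 h of LPS all 3 NR4A genes were scarce, and none passed the test. Nr4a1 had 0.887, 1.77 and 0.668 CPM in trametinib replicates 1, 2 and 3, against 0.729, 2.57 and 0.594 CPM in vehicle replicates 1, 2 and 3. Replicate 2 was the highest library of both groups, and the groups overlapped. Nr4a1 had a log2FC of −0.21 with a 95% interval of −1.69 to 1.27 (adjusted p 0.825), and its sign turned when trametinib replicate 3 or vehicle replicate 2 was left out (0.05 and 0.75). These values rested on 12 to 33 counts per trametinib library and 11 to 46 per vehicle library.

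Nr4a2 had 1.77, 2.58 and 2.73 CPM with trametinib, against 1.51, 2.46 and 2.27 CPM with vehicle. Replicate 1 was the lowest in both groups, and in each of the 3 replicate numbers the trametinib library was the higher. Nr4a2 had a log2FC of 0.19 (95% interval −0.39 to 0.76, adjusted p 0.604). Nr4a3 had 1.66, 1.67 and 4.29 CPM with trametinib, against 0.449, 1.79 and 2.54 CPM with vehicle. Replicate 3 was the highest in both groups, and vehicle replicate 1, with 8 counts, was the lowest of all. The log2FC of Nr4a3 was 0.67 (95% interval −0.82 to 2.15, adjusted p 0.448), and it was 0.06 without trametinib replicate 3 and 1.18 without vehicle replicate 3. Together the 3 genes had 4.32, 6.02 and 7.69 CPM with trametinib, against 2.69, 6.81 and 5.4 CPM with vehicle. The intervals of the NR4A genes did not reach the log2FC of −6.23 of Egr1, another immediate early gene, but they leave room for a change of 2-fold in Nr4a1 and Nr4a3 in at least 1 direction.

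The RXR genes supply the shared partner of RAR, PPAR, LXR and VDR. Rxrb (ENSMUSG00000039656, chromosome 17, 34031812 to 34038399 on mm10, plus strand) had 40.7, 39.3 and 43.8 CPM with trametinib, against 31.4, 27.8 and 37.1 CPM with vehicle. All trametinib libraries lay above all vehicle libraries, with vehicle replicate 3 the nearest to them, and the trametinib library was the higher in 3 of 3 replicate numbers. Rxrb rose with a log2FC of 0.36 ± 0.11 (SE), at an adjusted p of 0.0298. The call was lost when any library other than vehicle replicate 3 was left out, with adjusted p of 0.0547 to 0.0989 and log2FCs of 0.27 to 0.40, while without vehicle replicate 3 the adjusted p was 0.00176 and the log2FC 0.48. Across the alternatives its adjusted p ran from 0.00176 to 0.0989.

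Rxra had 71.8, 71.8 and 67.1 CPM with trametinib, against 78.5, 73.7 and 64.2 CPM with vehicle. The vehicle libraries spanned the trametinib ones on both sides, with vehicle replicate 3 the lowest. Its log2FC was −0.04 (95% interval −0.23 to 0.15, adjusted p 0.751). Per length of exon the ratio of Rxrb to Rxra was 0.780, 0.753 and 0.899 with trametinib, against 0.550, 0.519 and 0.794 with vehicle. These ratios overlapped between the groups (difference 0.41 on the log2 scale, exact permutation test, two-sided, p = 0.3, where 0.1 is the smallest p that 3 against 3 libraries allow). Within each replicate number the trametinib library had the higher ratio, and the permutation test did not use the replicate numbers.

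Rara changed more than Rxrb and passed in every alternative. Rara (ENSMUSG00000037992, chromosome 11, 98927818 to 98974942 on mm10, plus strand) had 7.10, 5.27 and 6.4 CPM with trametinib, against 13.0, 12.8 and 9.29 CPM with vehicle. Every trametinib library was below every vehicle library, and vehicle replicate 3 was the lowest of the vehicle libraries, as it was for the genes of ERK output. Rara fell with a log2FC of −0.90 ± 0.17 (SE), at an adjusted p of 0.00377. In all 13 alternatives, including each library left out, the log2FC lay between −1.05 and −0.79 and the adjusted p at or below 0.0186.

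The windows before the starts of the 2 changed receptor genes are given for comparison with those of the NR4A genes, with the same letters in capitals. The Rara stretch (chr11:98937446-98937695, plus strand) ends at the first of 4 RefSeq starts. The Rxrb stretch (chr17:34031683-34031811, plus strand) covers the part of the window that lies outside exons of Slc39a7 and Gm20427, which overlap it.
Rara: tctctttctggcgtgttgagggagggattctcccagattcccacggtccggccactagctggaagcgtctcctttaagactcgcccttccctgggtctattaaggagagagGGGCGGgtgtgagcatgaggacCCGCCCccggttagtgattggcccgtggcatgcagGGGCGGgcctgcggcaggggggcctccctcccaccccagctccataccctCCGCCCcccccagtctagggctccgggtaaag
Rxrb: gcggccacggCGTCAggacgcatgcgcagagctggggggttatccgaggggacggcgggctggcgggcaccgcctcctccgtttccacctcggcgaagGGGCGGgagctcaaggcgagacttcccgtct
The Rara stretch held 4 GC boxes, a number reached by 4.09% of windows, and no TGACG. The Rxrb stretch held 1 GC box and 1 TGACG. The letters CCGGAAG, the core bound by ETS factors, which ERK can activate, were not in the Rara stretch and were once in the Rxrb window, outside the stretch printed, and in 6.91% of all windows. Neither of these windows held AAAGGTCA, the site that NR4A monomers bind, which was in 1.34% of windows, nor TGANTCA, the AP-1 site, which was in 6.75%. The Rara window at chr11:98964622-98964871, before the last of its starts, held 1 TGACG and 1 GC box. A further Rxrb window, chr17:34032100-34032349, held 3 GC boxes and no TGACG. That window lies inside the Rxrb gene and wholly within annotated exons. All motifs were searched on both strands.

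**Figure D3:**
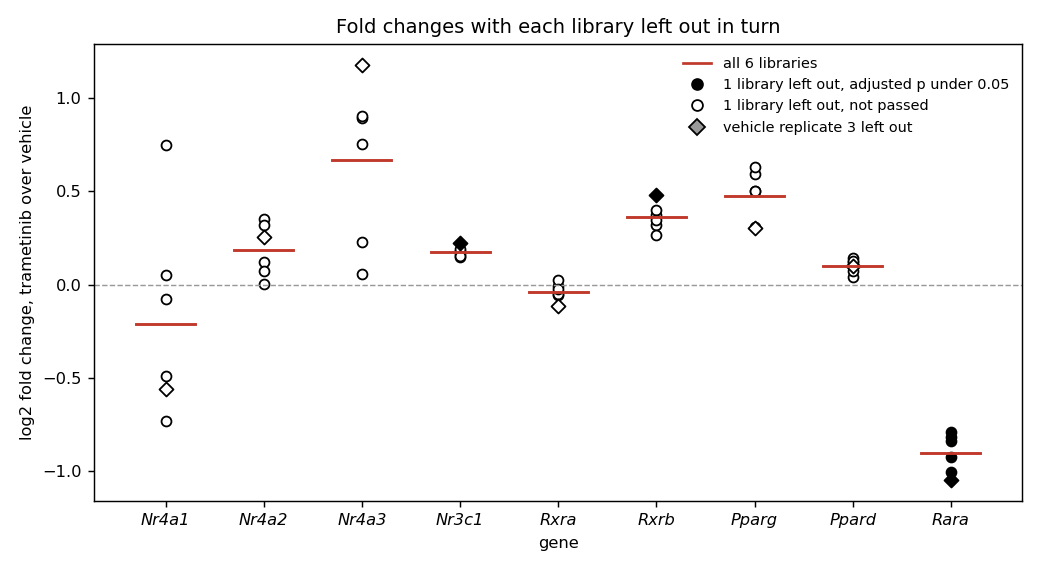
Log2FC of the 9 tested receptor genes (y axis, trametinib over vehicle) with all 6 libraries (red bars) and with each library left out in turn (points, filled where adjusted p was under 0.05, diamonds for vehicle replicate 3 left out). Rara stays between −1.05 and −0.79 and filled at every point, Rxrb is filled only without vehicle replicate 3, and Nr4a1 spans −0.73 to 0.75.

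Rarg, the other RAR gene with reads enough to test, moved opposite to Rara. It had 33.3, 32 and 34.3 CPM with trametinib, against 22.8, 25.4 and 30.4 CPM with vehicle (log2FC 0.34, adjusted p 0.0375). This call was lost without any library other than vehicle replicate 3 (adjusted p 0.0722 to 0.130, and 0.00176 without that library). Per length of exon, the ratio of Rara to Rarg was 0.208, 0.161 and 0.183 with trametinib, against 0.556, 0.491 and 0.298 with vehicle. The ratio was lower in every trametinib library, a difference of −1.25 on the log2 scale (exact permutation test, two-sided, p = 0.1, the smallest p that 3 against 3 libraries allow). Both ratios given here were chosen with the values of these genes known, and adjusted over the pair of them the p was 0.2 for Rara to Rarg and 0.3 for Rxrb to Rxra. Of 16 genes of retinoid handling and response, 4 could be tested and 1 of them changed, Rarg, against 34.3% of all tested genes changed. The list had a median log2FC of −0.12 against −0.01 for all tested genes. Tgm2, a transglutaminase induced by retinoic acid, averaged 153 ± 5.55 CPM with trametinib and 187 ± 35.7 CPM with vehicle (adjusted p 0.135; 0.000879 without vehicle replicate 3). Rdh10, which makes retinaldehyde, had a log2FC of −0.56 (adjusted p 0.171; 0.0269 with the replicate number as a block), and Dhrs3, which reduces retinaldehyde back to retinol, was at 0.04 (adjusted p 0.728). The count of higher genes was 0 without any single library other than vehicle replicate 3. In those settings 9.33% to 14.6% of all tested genes rose.

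Of the PPAR genes, Pparg, which drives lipid uptake and storage genes, was present at low level, and Ppard, the more widely expressed isotype, at a higher level. Pparg had 1.95, 2.90 and 2.28 CPM with trametinib, against 2.08, 1.79 and 1.3 CPM with vehicle. Trametinib replicate 1 lay below vehicle replicate 1, and the trametinib library was the higher in the other 2 replicate numbers. Pparg had a log2FC of 0.47 (95% interval −0.09 to 1.04, adjusted p 0.174). Ppard had 46.2, 41.4 and 39.9 CPM with trametinib, against 41.1, 38.1 and 39.6 CPM with vehicle. Its groups overlapped, with trametinib replicate 1 the highest library. Its 95% interval ran from −0.08 to 0.28 around a log2FC of 0.10 (adjusted p 0.353).

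Among 18 PPAR target genes, 15 were tested, of which 6 rose, 1 fell and 8 did not pass, against 34.3% of all tested genes changed. Their median log2FC was 0.22, against −0.01 for all tested genes. Fabp4, a fatty acid carrier, averaged 118 ± 26.8 CPM with trametinib and 41.7 ± 5.04 CPM with vehicle (log2FC 1.5, adjusted p 0.00136). Abcg1, a cholesterol exporter that LXR also induces, had 265 ± 21.4 CPM with trametinib and 96.3 ± 8.98 CPM with vehicle (log2FC 1.46, adjusted p 0.000104). Acadl, an enzyme of fatty acid oxidation, rose (log2FC 0.52, adjusted p 0.00184), and the member that fell was Olr1, a scavenger receptor, at 0.532 ± 0.322 CPM with trametinib and 2.12 ± 0.232 CPM with vehicle (adjusted p 0.00496). Cd36, another scavenger receptor and a standard PPARgamma target, had 178, 282 and 145 CPM with trametinib, against 179, 264 and 143 CPM with vehicle, so the libraries differed by replicate number and hardly by group (log2FC 0.05, adjusted p 0.930). The members that rose numbered 3 without trametinib replicate 1, trametinib replicate 2 or vehicle replicate 1, and 4 without vehicle replicate 2. In those settings 9.33%, 10.5%, 9.89% and 10.2% of all tested genes rose, against 15.8% with all libraries. Without trametinib replicate 3, 6 members rose, against 14.6%, and without vehicle replicate 3, 5 rose, against 19.3%. With the replicate block 7 members rose and 2 fell, against 42.9% of all tested genes changed.

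Vdr, the vitamin D receptor gene, had 4, 6 and 2 counts in the trametinib libraries, against 8, 5 and 4 counts in the vehicle libraries. At 0.223 ± 0.106 CPM with trametinib and 0.315 ± 0.120 CPM with vehicle it did not reach the count minimum, and without that filter its log2FC was −0.48 (adjusted p 0.6). A difference in Vdr was not detectable at this depth. Of 9 genes of vitamin D metabolism and response, 6 were tested, of which 2 rose and 1 fell, against 34.3% of all tested genes changed. Tfeb, a regulator of lysosomal genes, rose (log2FC 0.78, adjusted p 0.00152), and Cd14, the LPS coreceptor, rose by 0.25 (adjusted p 0.0214; lost without trametinib replicates 1 and 2 or vehicle replicates 1 and 2, at 0.0601 to 0.1). Nod2, a sensor of bacterial cell wall fragments, fell by 0.53 (adjusted p 0.00131). Thbd, the gene of thrombomodulin, had a log2FC of 0.64 (adjusted p 0.115; 0.04995 with the replicate block). The count of higher genes was 1 without trametinib replicate 1 or 2 or vehicle replicate 1 or 2. In those settings 9.33% to 10.5% of all tested genes rose.

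Nr3c1, the glucocorticoid receptor gene and the most abundant of the 10 (ENSMUSG00000024431, chromosome 18, 39410545 to 39519421 on mm10, minus strand), had 199, 195 and 191 CPM with trametinib, against 166, 168 and 184 CPM with vehicle. All trametinib libraries were above all vehicle libraries, with vehicle replicate 3 the nearest. The difference was small, a log2FC of 0.18 (SE 0.07), and did not pass (unadjusted p 0.0431, adjusted p 0.0991). It passed without vehicle replicate 3 (log2FC 0.22, adjusted p 0.0294), and its adjusted p lay between 0.0294 and 0.274 in the alternatives.

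Several genes of the chaperones that fold the glucocorticoid receptor fell with trametinib, and most tested genes that the receptor induces rose. Of 11 chaperone and cochaperone genes tested, 5 fell, none rose and 6 did not pass, against 34.3% of all tested genes changed and 18.4% lower. Their median log2FC was −0.31. With the replicate block 7 fell, against 42.9% of all tested genes changed. With each library left out in turn 4 to 6 fell, against 21.2% to 40.8% of all tested genes changed. Ppp5c, a phosphatase in the receptor complex, averaged 23.4 ± 1.88 CPM with trametinib and 39.6 ± 2.84 CPM with vehicle (log2FC −0.76, adjusted p 0.000583). Stip1, which links HSP70 to HSP90, fell by 0.45 (adjusted p 0.000982), Fkbp4, an immunophilin, by 0.40 (adjusted p 0.00486) and Ptges3, the cochaperone p23, by 0.31 (adjusted p 0.00774). Hsp90aa1, an HSP90 gene named after its values were seen, fell by 0.32 (adjusted p 0.0181; 0.0849 without trametinib replicate 1 and 0.0690 without vehicle replicate 2), and its relative Hsp90ab1 had a log2FC of −0.13 (adjusted p 0.184).

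Of 14 glucocorticoid-induced genes, 11 were tested, of which 7 rose, 2 fell and 2 did not pass, 81.8% changed against 34.3% of all tested genes. The median log2FC was 0.74. Tsc22d3, whose product GILZ mediates glucocorticoid effects, had 47.0, 42.7 and 41.7 CPM with trametinib, against 26.6, 23.9 and 28.3 CPM with vehicle (log2FC 0.74, adjusted p 0.000639). Per1, a clock gene with glucocorticoid response elements, rose by 0.80 (adjusted p 0.000460), and Mertk, a receptor for uptake of apoptotic cells, by 1.15 (adjusted p 0.000412). Cebpd, a transcription factor, fell by 2.85 (adjusted p 0.000412), and Anxa1, an inhibitor of inflammation named after its values were seen, fell by 0.53 (adjusted p 0.00871). Fkbp5, a standard readout of the receptor that is also a member of the chaperone list, was lower and did not pass, at 6.61 ± 0.843 CPM with trametinib and 8.24 ± 1.21 CPM with vehicle (adjusted p 0.130). The list was chosen with earlier results of these data known. The protocol names no added glucocorticoid, and the part of the receptor in these changes was not tested.

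**Figure D4:**
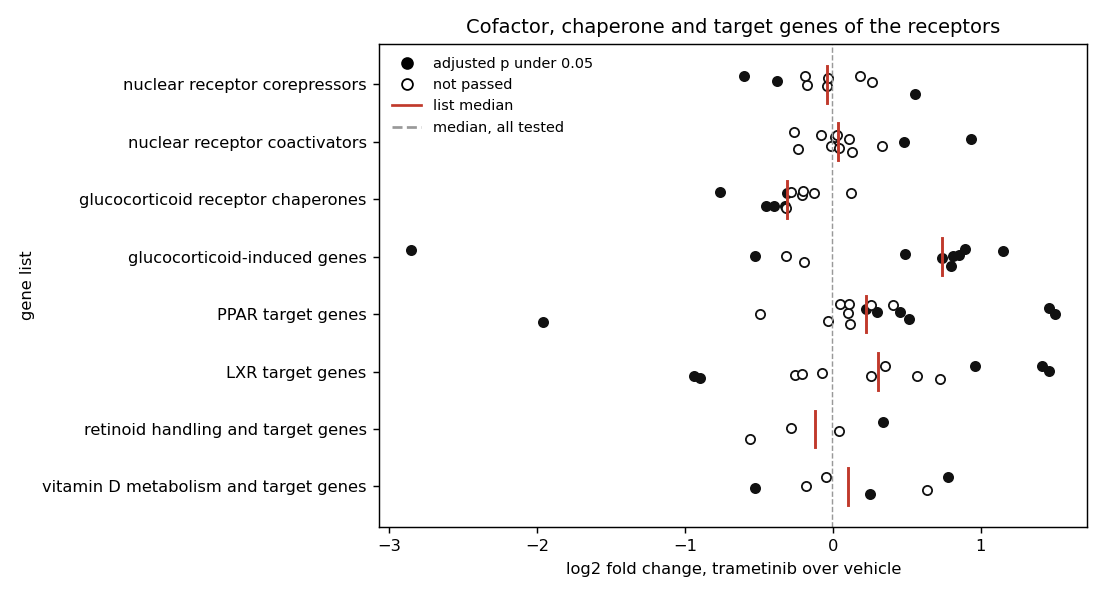
Log2FC (x axis, trametinib over vehicle) of the tested genes of 8 lists of cofactors, chaperones and target genes, filled where adjusted p was under 0.05, with the list median in red and the median of all tested genes dashed. The glucocorticoid-induced list lies mostly to the right, with a median of 0.74 and Cebpd far left at −2.85, and the chaperone list lies mostly to the left, with a median of −0.31.

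Receptors such as RAR recruit corepressors without ligand and coactivators with it. Among 9 corepressor genes 1 was higher, 2 were lower and 6 did not pass, against 34.3% of all tested genes changed. Among 12 tested coactivator genes 2 were higher, 0 were lower and 10 did not pass. Gps2, a subunit of a corepressor complex with HDAC3, fell by 0.38 (adjusted p 0.0157; 0.0535 without trametinib replicate 2, 0.0518 and 0.0613 without vehicle replicates 1 and 2), whereas Tbl1xr1, an exchange factor for corepressors, rose by 0.55 (adjusted p 0.000755). Its relative Tbl1x had a log2FC of 0.26 (adjusted p 0.0526; 0.0200 with the replicate block, 0.00455 to 0.189 in the alternatives). Ncoa1, the coactivator SRC-1, rose by 0.48 (adjusted p 0.000667), and Ncoa4, a receptor coactivator that also carries ferritin to lysosomes, averaged 795 ± 29.0 CPM with trametinib and 415 ± 115 CPM with vehicle (adjusted p 0.00646). The arginine methyltransferase genes Prmt1 and Carm1 did not pass, at log2FC −0.23 (adjusted p 0.0556; 0.0488 with the replicate block) and log2FC −0.26 (adjusted p 0.0848; 0.0461 with the block). With the block 3 corepressors rose and 3 fell, and 2 coactivators rose and 2 fell, against 42.9% of all tested genes changed. Without vehicle replicate 3, 3 corepressors rose and 2 fell, and 3 coactivators rose and 1 fell, against 40.8% of all tested genes changed. Without trametinib replicate 2 or vehicle replicate 1 or 2, 1 corepressor rose and 1 fell, against 23.1%, 22.2% and 23% of all tested genes changed.

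Within the whole nuclear receptor superfamily of 49 genes, 24 were tested, of which 5 rose, 2 fell and 17 did not pass. That is 29.2% changed, against 34.3% of all tested genes. The 2 that fell were Rara and Nr1h3, the gene of LXRalpha, and of the 24 genes Nr1h3 had the profile over the 6 libraries most like that of Rara (distance 0.43 in centred log2 CPM, against 1.07 for the next, Esrra). Nr1h3 had 115, 112 and 91.9 CPM with trametinib, against 240, 222 and 150 CPM with vehicle (log2FC −0.94, adjusted p 0.00714). The profile most like that of Rxrb was that of Rarg (distance 0.24, against 0.31 for the next, Nr1d2). That of Nr3c1 was about as close to Nr1h2, the gene of LXRbeta, as to Ppard (distances 0.199 and 0.205). Genes that vary little between libraries lie close to each other by this distance. The members of the superfamily that rose beside Rxrb and Rarg were Nr1d2 (log2FC 0.49, adjusted p 0.00529), Nr1h2 (0.21, adjusted p 0.0325) and Rora (0.44, adjusted p 0.0417, named after its values were seen). The call of Nr1h2 was lost without trametinib replicates 1 and 2 and vehicle replicates 1 and 2 (adjusted p 0.0561 to 0.133), and that of Rora without any library other than vehicle replicate 3 (adjusted p 0.0861 to 0.143). The number that rose was 1 without trametinib replicate 1, trametinib replicate 2, vehicle replicate 1 or vehicle replicate 2. In those settings 9.33% to 10.5% of all tested genes rose, against 15.8% with all libraries. The superfamily count was 2 without trametinib replicate 3, against 14.6% of all tested genes, and 6 without vehicle replicate 3, against 19.3%. The number that fell was 2 in each of these settings. Of the 10 partners of RXR that were tested, 2 rose (Nr1h2 and Rarg) and 2 fell (Rara and Nr1h3), against 34.3% of all tested genes changed. None of the partners rose without trametinib replicates 1 or 2 or vehicle replicates 1 or 2, against 9.33% to 10.5% of all tested genes. Without trametinib replicate 3, 1 rose, against 14.6%, and without vehicle replicate 3, 2 rose, against 19.3%.

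**Figure D5:**
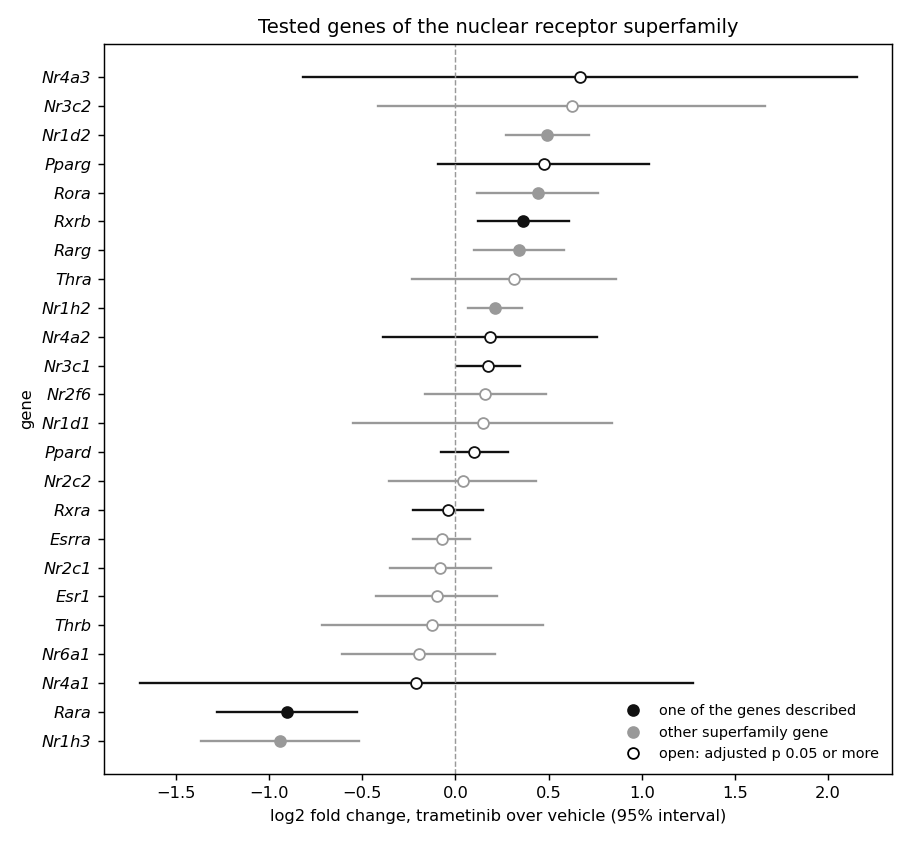
Log2FC (x axis, trametinib over vehicle) with its 95% interval for the 24 tested genes of the nuclear receptor superfamily, the genes described here in black and the others in grey, open where adjusted p was 0.05 or more. Rara and Nr1h3 lie at −0.90 and −0.94 with intervals below 0, and the interval of Nr4a1 runs from −1.69 to 1.27.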

How the data were processed

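RNA of 6 rRNA-depleted libraries was measured, 3 with trametinib and LPS and 3 with vehicle and LPS. The authors deposited raw counts of reads per gene. The submitters' processing notes name the mm10 build, R 3.6.0, DESeq2 1.24.0, the aligner HISAT2 2.1.0 and the counter featureCounts 1.6.4. Not given in the sources used here are the strand setting, the annotation and how reads with several matches were counted. No exon of the 10 genes overlapped an exon of another gene.

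Of 25354 rows, 310 repeats were dropped, leaving 25044 genes, of which 25033 matched GENCODE M21, which also gave exon lengths. Genes kept by filterByExpr were compared with edgeR 4.0.16 (TMM, robust quasi-likelihood fit, group as the only term) in R 4.3.3. The SE is the log2 fold change over the square root of F, and 95% intervals use the degrees of freedom of the fit. The p values reflect only how far these libraries spread, because the labels name no animal for each. Library totals ran from 17453778 to 19648467 counts, and the chi-square per gene between replicates was 5.98 to 28.1, so no library was a copy.

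Same-numbered libraries deviated together from their group means (correlations 0.339, 0.393 and 0.285, against −0.0724 to −0.223 for different numbers), so the numbers may pair the samples. Because deviations were taken from group means, positive same-number values in part force the negative values between different numbers. The labels do not state this pairing, and the main fit and the exact permutation tests did not use it. One alternative added the replicate number as a block. The others were DESeq2 1.42.0 and its size factors in edgeR, limma-voom (limma 3.58.1), TMM factors made without mitochondrial genes and the 10 most abundant genes, filters, and leaving out each library.

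The genes, lists, alternatives and motifs were chosen with earlier results of these data known. All 10 genes are named, with up to 4 genes of smallest p per list, up to 2 superfamily genes of closest profile, and others marked as named after their values were seen; Cd36 and Hsp90ab1 are among the latter, as are Fkbp5, Adgre1, Itgam and Ctss. Simulated counts with known changes were used to check the fit. Some genes that the rule names are not reported here. SciPy 1.17.1 gave the exact permutation tests.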

Additional observations from a re-analysis of the deposited data

How the results depend on the processing

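Rara fell in all 13 alternatives. When libraries were left out in turn, the receptor genes that changed numbered 1 to 3 and those that rose 0 to 2. In the superfamily 3 to 8 genes changed and 1 to 6 rose. Of all genes 2428 to 4663 changed, with 1068 to 2210 higher and 1360 to 2453 lower; the count was 2428 without trametinib replicate 1 and 2538 without vehicle replicate 1. Signs turned for Nr4a1 (−0.73 to 0.75), Rxra (−0.1161 to 0.0274), Dhrs3 (−0.0016 to 0.12) and Cd36 (−0.27 to 0.32) as libraries were left out, none of them past the threshold in any setting; the cause was not tested. With the replicate number as a block 4837 of all genes and 2 of the 10 receptor genes changed (Rara, adjusted p 0.00389, and Rxrb, 0.00679). Beside the calls given above, the block changed no other call among the superfamily genes and the 44 other genes described next. Genes named only as cell markers were outside this check. With the block 3 macrophage markers rose and 3 fell, and 1 dendritic cell marker rose, against 42.9% of all tested genes changed. Left out of the next counts are genes named only as cell markers or only for a close profile. Of 44 other genes selected by smallest p or after their values were seen, 34 had passed. Of these, 7 lost the call in at least 1 setting. For 2 of the 7 (Nr1h2, adjusted p 0.0595, and Mylip, 0.0616) a call was lost outside the settings that leave out a library. In both cases this was with no filter on low counts. Another 6 genes gained a call in at least 1 setting. Low counts limit the NR4A genes, Pparg and Vdr, with at most 77 per library.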

Other observations

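Per kb of exon, the receptor genes of the superfamily with the highest means over the 6 libraries were Nr1h3 at 61.6 and Nr1h2 at 33.0 CPM per kb, ahead of Nr3c1 at 23.9, and 7 of the 49 superfamily genes had no count in any library. LXRalpha and LXRbeta, the products of Nr1h3 and Nr1h2, are receptors for oxysterols that induce cholesterol efflux and lipogenic genes. Of 12 tested LXR target genes 3 rose, 2 fell and 7 did not pass, against 34.3% of all tested genes changed, with a median log2 fold change of 0.30. The 3 that rose were Abcg1, Abca1 and Mylip. Abca1, a cholesterol exporter, had 501, 537 and 529 CPM with trametinib, against 224, 253 and 327 CPM with vehicle (edgeR, log2 fold change 0.96, adjusted p 0.00107). Mylip, a ubiquitin ligase that degrades the LDL receptor and was named after its values were seen, averaged 109 ± 11.5 CPM with trametinib and 40.7 ± 17.9 CPM with vehicle (SD, n = 3 each; edgeR, adjusted p 0.0185). Its call was lost without trametinib replicates 2 and 3 and vehicle replicates 1 and 2 (edgeR, adjusted p 0.0532 to 0.0623). The 2 that fell were Nr1h3 itself, which is in the list as its own target, and Fasn, the fatty acid synthase gene, at 10.4 ± 2.60 CPM with trametinib and 19.4 ± 0.583 CPM with vehicle (edgeR, adjusted p 0.00374). With the replicate block 6 LXR targets rose and 2 fell, against 42.9% of all tested genes changed.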
